A study of Homo sapiens with 32 samples.

Results

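The genes described here are MYC, its family member MYCN, its partner MAX, the proteins MXI1 and MNT that also pair with MAX, the zinc finger protein ZBTB17 that MYC binds, and the 3 PIM kinase genes PIM1, PIM2 and PIM3. They were chosen by symbol, with earlier results of these data known. Each of the 9 symbols stood on 1 of the 32738 gene entries of the count table. HEK293, a widely used human cell line derived from embryonic kidney, had been incubated with 4-thiouracil, a uracil analogue with sulphur that cells build into the RNA they make. The groups were 0 min, 5 min, 15 min and 30 min of incubation, with 2 cultures (the labels' biological replicates) at each time. Every culture gave 2 cDNA preparations of 2 libraries, 32 libraries in all, and counts were summed over the 4 libraries of a culture. The labels name HEK293 as the line at every time, with no genetic change, and polyadenylated RNA as the molecule. They give neither the treatment of the 0 min cells nor any purification of tagged RNA. A difference from 0 min or between incubated times therefore cannot be told apart from a difference in which RNA was counted.

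MYC is a transcription factor of the basic helix-loop-helix leucine zipper class. It binds E-box DNA as a heterodimer with MAX and raises transcription of genes of growth, ribosome production and metabolism. MXI1 and MNT pair with MAX as well and recruit SIN3 corepressors to the same sites, so the MAX network is usually described as a balance between MYC:MAX and these repressive dimers. ZBTB17, also called MIZ1, activates genes of cell cycle arrest until MYC binds it and turns it to repression. The PIM proteins are serine/threonine kinases that are active once made, so their output is set largely by how much mRNA and protein is present. They are classical targets of JAK-STAT signalling and cooperate with MYC in lymphoid tumours. The mRNAs of MYC and PIM1 are known to be short-lived.

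Library totals ranged from 188686 to 381471 counts and culture totals from 776871 to 1396056. At these depths, by counting error alone, a count of 0 in both cultures of a time allows a level of up to 2.03 CPM (counts per 1e+06 counts) at 0 min and 0.911 CPM at 30 min. The limit is higher where libraries of 1 cDNA repeat the same molecules. Of the 5 HEK293 markers measured, VIM lay between 212 and 500.4 CPM, KRT8, KRT18 and NEFM between 1.84 and 32.4 CPM, and PAX2 between 0 and 2.36 CPM. Summed over these 5, the level was 565.6 and 472.6 CPM at 0 min and 230.3 to 311.1 CPM at the later times, with KRT8 and VIM lower at 30 min than at 0 min, and the part of this in the results below was not tested. The 9 markers of leukocytes, red cells, endothelium, fibroblasts and liver summed to at most 7.25 CPM in any culture, and 6 of them, PTPRC, HBB, DCN, CDH5, CD3E and ALB, had 0 counts. Levels below are CPM after TMM scaling, that is, shares of the counted RNA. In bulk samples fewer cells that make an RNA and less of it per cell cannot be told apart. TMM scaling left the median log2 change of all 10439 genes tested at 0.10, 0.19 and 0.35 for 5, 15 and 30 min against 0 min, whereas scaling by total counts put it at 0.83, 0.96 and 1.22. Called changes against 0 min are therefore given beside their place among all genes, except folds set by a count of 0 or 1.

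**Figure D1:**
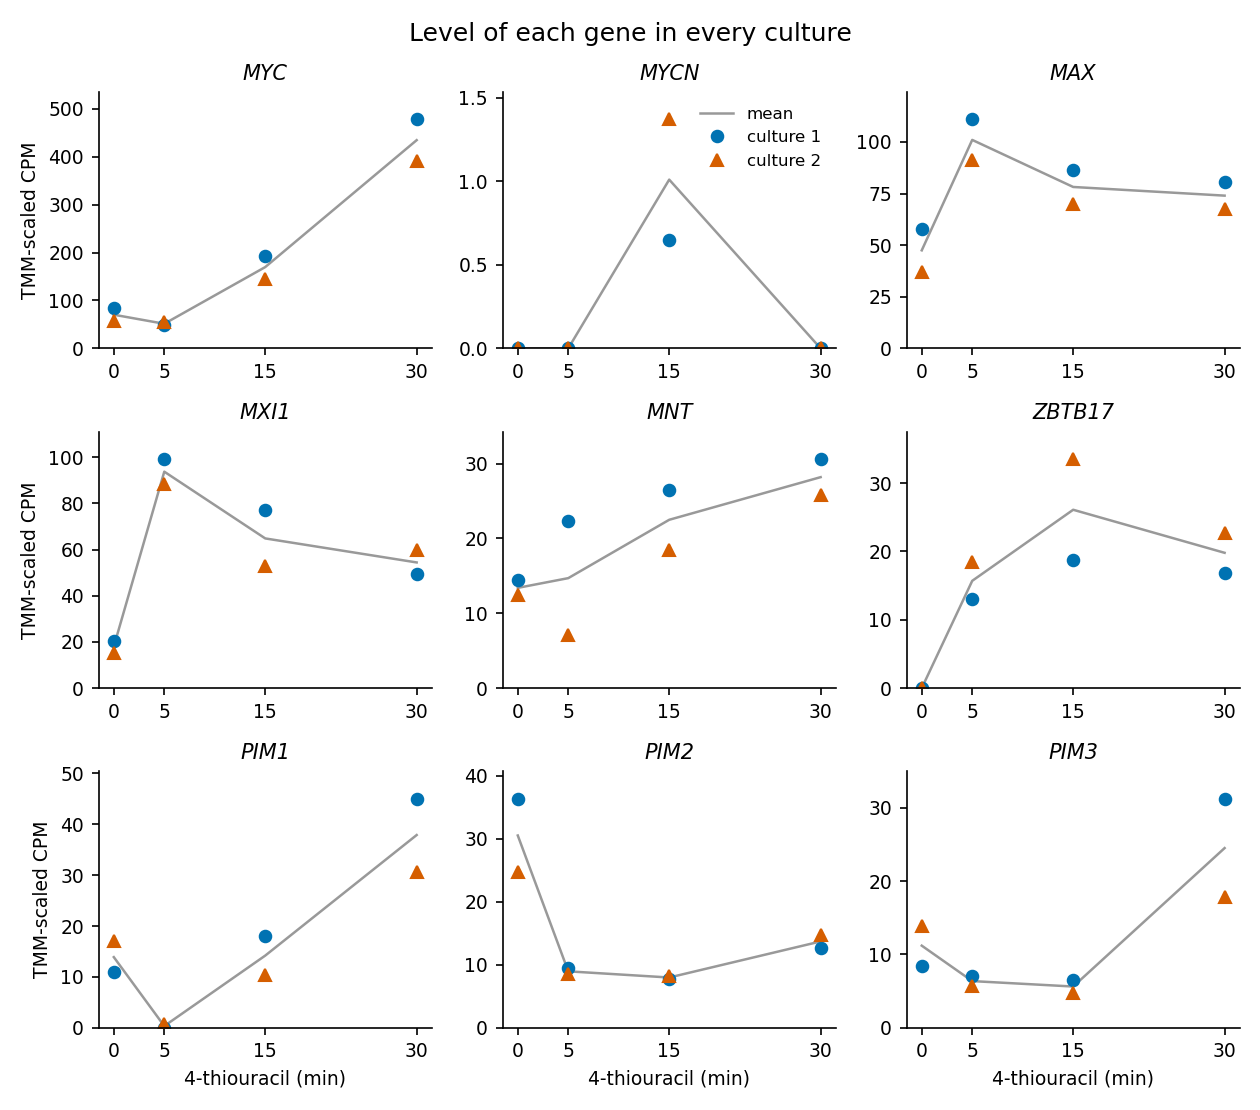
Level of each of the 9 genes (TMM-scaled CPM, linear axes that start at 0) against minutes of 4-thiouracil, with 1 point per culture and a line through the mean of both. MYC stands at 391.6 and 478 CPM at 30 min, PIM1 at 0 and 0.707 CPM at 5 min, and ZBTB17 at 0 in both cultures at 0 min.

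Of the 9 genes, 8, all but MYCN, passed the filter on low counts and were tested with edgeR's quasi-likelihood test in 1 fit over the 8 cultures, with p-values adjusted over all 10439 genes. Between 5 min and 0 min, MAX, MXI1 and ZBTB17 were higher and PIM1 and PIM2 lower. That is 3 higher and 2 lower, where 28.7% of all genes tested were called higher and 26.0% lower. At 15 min against 0 min, MYC, MAX, MXI1 and ZBTB17 were higher and PIM2 was lower, with 29.8% of all genes higher and 24.6% lower. At 30 min against 0 min, MYC, MXI1, ZBTB17 and PIM1 were higher and PIM2 was lower, with 32.1% of all genes higher and 23.8% lower. In either direction 5 of the 8 were called in each comparison with 0 min, which is near the share of all genes called, 54.7%, 54.4% and 55.9%. ZBTB17 had 0 counts at 0 min and passed the filter through the incubated cultures alone, so the only call open to it was higher. Over all genes, calls at 30 min against 0 min were 3352 higher and 2485 lower with TMM scaling and 5622 higher and 1331 lower with total counts.

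Between incubated cells far fewer genes moved. From 5 to 15 min MYC and PIM1 rose, where 1.55% of all genes were called, 1.03% higher and 0.517% lower. From 15 to 30 min MYC and PIM3 rose, where 5.04% of all genes were called, 2.26% higher and 2.78% lower. Over the whole interval of 30 min against 5 min, MYC, PIM1 and PIM3 were higher and MXI1 was lower, where 12.4% of all genes were called, 5.88% higher and 6.52% lower. Because the genes were chosen with earlier results of these data known, these shares do not test the group. Leaving out 1 culture took the count for 30 min against 15 min to 1, without either culture of 15 min or of 30 min, and the count for 30 min against 5 min to 2, without culture 2 of 5 min or either culture of 30 min. The count for 30 min against 0 min was 3 without culture 1 of 30 min. With total counts in place of TMM the split was 3 higher and 1 lower at 5 min, 5 and 0 at 15 min and 7 and 0 at 30 min against 0 min.

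MYC, the central factor of the group, had 83.4 and 57.1 CPM at 0 min, 48.4 and 54.4 CPM at 5 min, 193.9 and 145.7 CPM at 15 min and 478 and 391.6 CPM at 30 min in cultures 1 and 2. Neither culture of 15 min or 30 min overlapped any culture of an earlier time. The level was 434.8 ± 61.1 CPM at 30 min, against 51.4 ± 4.25 CPM at 5 min (SD, n = 2 cultures each). That is a log2 fold change of 3.07 (SE 0.22, edgeR adjusted p = 1.03e-12), and 0.795% of all genes tested rose further over that interval. The step from 5 to 15 min was 1.71 (SE 0.22, edgeR adjusted p = 3.77e-06) and the step from 15 to 30 min 1.35 (SE 0.19, edgeR adjusted p = 2.52e-05).

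Against 0 min, MYC was not past the threshold at 5 min, with a log2 fold change of -0.46 (SE 0.26, edgeR adjusted p = 0.14) that turned to 0.27 with total counts only. At 15 min it was 1.25 higher (SE 0.23, edgeR adjusted p = 1.69e-05) and at 30 min 2.61 higher (SE 0.22, edgeR adjusted p = 4.62e-12), a linear fold of 6.10. Of all genes tested, 26.9% rose further at 15 min and 6.95% at 30 min. All 5 calls held in each of the 16 alternatives of scaling, filter, tool, libraries and cultures. By cDNA preparation the unscaled counts were 18 to 38 at 0 min, 15 to 42 at 5 min, 104 to 168 at 15 min and 279 to 400 at 30 min, so those of 0 and 5 min overlapped and those of 15 and 30 min stood apart. In the RefSeq annotation MYC lies between CASC11 and TMEM75 on the opposite strand, which had 1 and 12 counts over all cultures, whereas MYC had 2170.

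MYCN, the family member best known from neuroblastoma and the developing nervous system, was nearly absent. It had 1 count in culture 1 and 2 counts in culture 2 at 15 min, and 0 counts in both cultures at 0, 5 and 30 min. With 3 counts in all it was left out of the test, and no fold is given. The antisense gene MYCNOS, which overlaps it, had 1 count, and MYCL, the third member of the MYC family, named after its values were seen, averaged 0.604, 0.707, 2.01 and 4.26 CPM at 0, 5, 15 and 30 min and was not tested either.

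MAX, the partner that MYC needs to bind DNA, had 58.0 and 37.1 CPM at 0 min, 110.9 and 91.1 CPM at 5 min, 86.6 and 69.8 CPM at 15 min and 80.5 and 67.6 CPM at 30 min. Both cultures of every incubated time were above both at 0 min. At 5 min MAX averaged 101.0 ± 14.0 CPM, against 47.5 ± 14.8 CPM at 0 min (SD, n = 2 each), a log2 fold change of 1.05 (SE 0.28, edgeR adjusted p = 0.0016), and 30.3% of all genes rose further. The difference at 15 min was 0.70 (SE 0.28, edgeR adjusted p = 0.0328), and that at 30 min missed the threshold at 0.62 (SE 0.28, edgeR adjusted p = 0.0566) but passed in 7 of 16 alternatives, among them total counts, at 1.49 (edgeR adjusted p = 1.5e-05). The call at 15 min was lost with RLE size factors (adjusted p = 0.067), in DESeq2 (adjusted p = 0.13), with the 4 cultures of both times alone (adjusted p = 0.0526), without culture 2 of 0 min (adjusted p = 0.223) and without culture 1 of 15 min (adjusted p = 0.192). Of all genes tested, 38.5% rose further than MAX at 15 min and 43.8% at 30 min against 0 min. No change of MAX between incubated times passed, and 30 min against 5 min was -0.44 (SE 0.24, edgeR adjusted p = 0.259). FNTB, which overlaps MAX on the opposite strand, had 39 counts in all cultures together and its readthrough partner CHURC1-FNTB had 5, whereas MAX had 775. The sources used here do not say whether counting used the strand, so reads of such overlapping genes cannot be told apart.

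MXI1, which pairs with MAX and opposes MYC, had 20.5 and 15.4 CPM at 0 min, 99.1 and 88.3 CPM at 5 min, 76.9 and 52.7 CPM at 15 min and 49.2 and 59.6 CPM at 30 min. It was highest at 5 min in both cultures. The log2 fold change against 0 min was 2.35 at 5 min (SE 0.34, edgeR adjusted p = 3.25e-07), 1.83 at 15 min (SE 0.34, edgeR adjusted p = 2.67e-05) and 1.57 at 30 min (SE 0.35, edgeR adjusted p = 0.000219). At 5 min 10.5% of all genes rose further, at 15 min 16.2% and at 30 min 21.9%. Against 5 min the level was lower at 30 min by a log2 fold change of -0.78 (SE 0.26, edgeR adjusted p = 0.0435), with 54.4 ± 7.34 CPM at 30 min against 93.7 ± 7.65 CPM at 5 min (SD, n = 2 each). That last call was lost in 12 of 16 alternatives, which kept its direction with values from -0.92 to -0.63.

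MNT, the other MAX partner that represses E-box genes, had 14.5 and 12.4 CPM at 0 min, 22.4 and 7.07 CPM at 5 min, 26.5 and 18.5 CPM at 15 min and 30.6 and 25.8 CPM at 30 min. The cultures of 5 min stood far apart and enclosed those of 0 min, whereas both cultures of 30 min lay above both of 0 min. No comparison of MNT passed with TMM scaling over all cultures. With total counts it passed at 15 min and 30 min against 0 min, at 1.505 and 1.93 (edgeR adjusted p = 0.0103 and 0.000804). It also passed at 30 min against 0 min without culture 1 or culture 2 of 5 min (edgeR adjusted p = 0.0475 and 0.042), and at 30 min against 5 min with 1 library per cDNA or without culture 1 of 5 min, at 1.65 and 1.98 (edgeR adjusted p = 0.0279 and 0.0327). The difference nearest to it was 30 min against 0 min, at 1.06 (SE 0.50, edgeR adjusted p = 0.0738). MNT counts were 20, 29, 68 and 93 over both cultures at 0, 5, 15 and 30 min, which gives wide errors.

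Of the 7 genes whose promoter windows were searched, all but MYC and ZBTB17, MNT was the one whose window held the canonical E-box CACGTG, the site that MYC:MAX and MNT:MAX share. The window below is from RefSeq and runs from 250 bases before the start of the gene to 50 bases after it, with the E-box in capitals. Its first base lies at -193, with the first base of the gene counted as 0.
MNT promoter, chr17:2401011-2401310, minus strand, GRCh38.p14: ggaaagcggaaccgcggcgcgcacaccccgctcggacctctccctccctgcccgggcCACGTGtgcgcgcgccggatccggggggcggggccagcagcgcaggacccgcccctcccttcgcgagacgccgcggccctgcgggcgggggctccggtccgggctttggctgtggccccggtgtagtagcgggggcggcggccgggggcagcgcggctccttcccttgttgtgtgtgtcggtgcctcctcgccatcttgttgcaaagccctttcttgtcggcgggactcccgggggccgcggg
CACGTG, searched on both strands, occurred in 7.26% of the 35116 promoter windows of the same length, and in 9.68% of the 11491 windows of genes tested. The related CACGCG was found in the third of 3 windows of MXI1, with its first base 8 bases after the start, and in that of PIM2. It occurred in 11.4% of all windows and in 18% of those of genes tested. The 2 windows of MAX and those of MYCN, PIM1 and PIM3 held neither. These matches are letters in a window and were not tested for binding.

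ZBTB17, the zinc finger partner through which MYC represses arrest genes, had 0 counts in both cultures at 0 min. It had 11 and 26 counts at 5 min, 29 and 49 at 15 min and 28 and 37 at 30 min. In CPM these were 13.0 and 18.4, 18.7 and 33.5, and 16.8 and 22.7. All 4 cDNA preparations at 0 min were at 0, and all 12 of the later times had 3 to 31 counts. Over a floor of 3 counts for both 0 min cultures, ZBTB17 was 8.04-fold higher at 5 min (edgeR adjusted p = 5.94e-05). It was 12.7-fold higher at 15 min (edgeR adjusted p = 3.41e-06) and 9.71-fold at 30 min (edgeR adjusted p = 1.48e-05). These folds take the later counts without error, so they are not strict lower bounds. The floor is also too low where libraries of 1 cDNA repeat the same molecules. With 0 counts at 0 min, ZBTB17 passed the filter on low counts through the incubated cultures alone. Its step from 5 to 15 min was 0.70 (SE 0.47, edgeR adjusted p = 0.563) and 30 min against 5 min was 0.30 (SE 0.48, edgeR adjusted p = 0.753). The neighbouring SPEN, on the opposite strand, was higher at 5 min as well, at 695.6 ± 2.40 CPM against 160.4 ± 19.3 CPM at 0 min (SD, n = 2 each), a log2 fold change of 2.11 (edgeR adjusted p = 3.38e-11).

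Ratios of counts within a culture need no scaling between cultures, and describe how MYC moved relative to its partners. A ratio is not read here as a measure of which gene is more abundant, but only for its change over time. The log2 ratio of MYC to MAX counts was 0.52 and 0.61 at 0 min, -1.19 and -0.74 at 5 min, 1.16 and 1.06 at 15 min and 2.57 and 2.53 at 30 min. It was thus lowest at 5 min and highest at 30 min in both cultures, and cultures of different times did not overlap. MYC to MXI1 was 1.99 and 1.84, -1.03 and -0.70, 1.33 and 1.46, and 3.27 and 2.71 over the 4 times, again lowest at 5 min and highest at 30 min. At 15 min, however, both cultures were below both of 0 min for MYC to MXI1 and above both for MYC to MAX. MYC to MNT averaged 2.31 ± 0.24, 1.99 ± 1.27, 2.91 ± 0.07 and 3.93 ± 0.03 (SD, n = 2 each), with 5 min the most uncertain. At 30 min against 0 min the ratio was therefore 1.98 higher on the log2 scale for MAX, 1.08 for MXI1 and 1.62 for MNT.

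**Figure D2:**
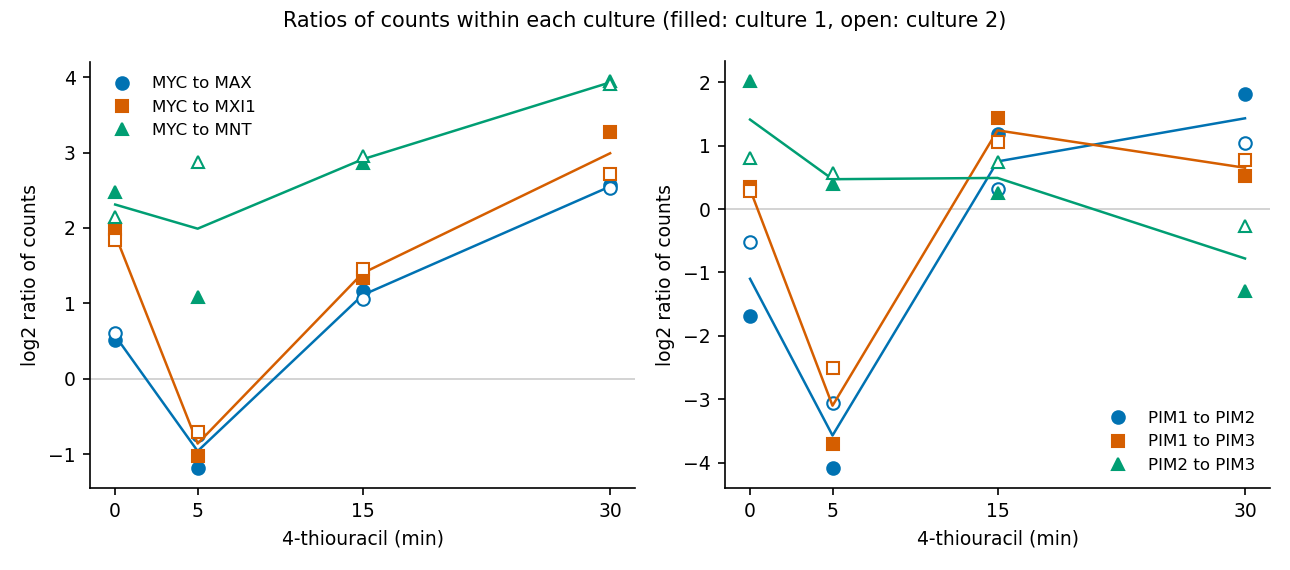
Log2 ratios of counts within each culture (0.5 added to each count) against minutes of 4-thiouracil, for MYC over its MAX-network partners on the left and between the PIM genes on the right, filled for culture 1 and open for culture 2. MYC to MAX lies at -1.19 and -0.74 at 5 min and at 2.57 and 2.53 at 30 min. PIM1 to PIM2 lies lower in every culture of 0 and 5 min than in any of 15 and 30 min.

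The PIM genes parted from each other, although they encode closely related kinases. PIM1, the founding member, had 10.9 and 17.0 CPM at 0 min, 0 and 0.707 CPM at 5 min, 18.1 and 10.3 CPM at 15 min and 45.0 and 30.7 CPM at 30 min. These were 9 and 11, 0 and 1, 28 and 15, and 75 and 50 counts. The 2 cultures of 5 min were the lowest and those of 30 min the highest, while 15 min and 0 min overlapped. At 0 min all 9 counts of culture 1 came from 1 of its cDNA preparations, the other having 0, whereas culture 2 had 5 and 6.

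With 1 count at 5 min against 20 at 0 min, PIM1 was 30.7-fold lower at 5 min, as the ratio of 0 min over 5 min (exact 95% counting interval 4.91 to 1272, edgeR adjusted p = 0.000144). The interval covers counting error only, and is too narrow where libraries of 1 cDNA repeat the same molecules. At 15 min PIM1 was 32.3-fold higher than at 5 min (5.5 to 1306, edgeR adjusted p = 0.00262), and at 30 min 85.9-fold higher than at 5 min (15.1 to 3421, edgeR adjusted p = 1.54e-06). The single count at 5 min lay in culture 2. The step from 15 to 30 min missed the threshold at 1.41 (SE 0.44, edgeR adjusted p = 0.0609) and passed in 8 of 15 alternatives. Against 0 min, PIM1 stood at 0.05 at 15 min (SE 0.54, edgeR adjusted p = 0.941) and 1.46 higher at 30 min (SE 0.50, edgeR adjusted p = 0.0127). At 30 min 24.4% of all genes rose further. The last call was lost in DESeq2 (adjusted p = 0.0821), without culture 1 of 0 min (adjusted p = 0.0922) and without culture 1 of 30 min (adjusted p = 0.148).

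PIM2, the family member best known from lymphoid cells, was lower than at 0 min at every later time. It had 36.3 and 24.7 CPM at 0 min, 9.44 and 8.48 CPM at 5 min, 7.76 and 8.21 CPM at 15 min and 12.6 and 14.8 CPM at 30 min. Both cultures at 0 min were above all 6 later ones. The log2 fold change against 0 min was -1.78 at 5 min (SE 0.55, edgeR adjusted p = 0.00638), -1.93 at 15 min (SE 0.53, edgeR adjusted p = 0.00254) and -1.16 at 30 min (SE 0.50, edgeR adjusted p = 0.0468). All 3 calls were lost with total counts only, at -1.05, -1.17 and -0.29 (edgeR adjusted p = 0.11, 0.0639 and 0.622), and the call at 5 min also without culture 1 of 0 min (adjusted p = 0.0812). The call at 30 min was lost in 8 of 16 alternatives. Relative to other genes PIM2 stood low in each, with 91.2%, 95.5% and 80.8% of all genes changing more upward or less downward.

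PIM3, a kinase described in epithelial tumours and metabolic tissue, had 8.46 and 13.9 CPM at 0 min, 7.08 and 5.65 CPM at 5 min, 6.46 and 4.79 CPM at 15 min and 31.2 and 17.8 CPM at 30 min. It was highest at 30 min in both cultures. The step from 15 to 30 min was 2.10 (SE 0.57, edgeR adjusted p = 0.0229), with 24.5 ± 9.48 CPM at 30 min against 5.63 ± 1.19 CPM at 15 min (SD, n = 2 each), and 0.46% of all genes rose further. The change at 30 min against 5 min was 1.96 (SE 0.59, edgeR adjusted p = 0.0257), a call lost in DESeq2 (adjusted p = 0.0704). These calls rest on 17 counts at 15 min and 14 at 5 min. Each was lost when any 1 of its own 4 cultures was left out, with adjusted p between 0.0608 and 0.526 for 30 min against 15 min and between 0.0511 and 0.383 for 30 min against 5 min. No comparison with 0 min passed, and the one at 30 min was 1.15 (SE 0.58, edgeR adjusted p = 0.0915), which became 2.03 with total counts (edgeR adjusted p = 0.00227).

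Within cultures, the log2 ratio of PIM1 to PIM2 was -1.68 and -0.52 at 0 min, -4.09 and -3.06 at 5 min, 1.19 and 0.31 at 15 min and 1.81 and 1.04 at 30 min. It was lower in all 4 cultures of 0 and 5 min than in any of the 4 of 15 and 30 min. PIM2 to PIM3 was 2.02 and 0.80 at 0 min, 0.39 and 0.56 at 5 min, 0.25 and 0.74 at 15 min and -1.29 and -0.27 at 30 min, so both cultures of 30 min lay below all others. MYC to PIM1 averaged 2.29 ± 0.82, 6.03 ± 0.48, 3.59 ± 0.27 and 3.53 ± 0.18 over the 4 times (SD, n = 2 each). MYC therefore stood high against PIM1 at 5 min, where PIM1 had 1 count, and the ratio at 15 and 30 min differed by less than its spread.

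The promoter windows of the 3 PIM genes are shown because their transcripts moved apart. The only searched motif in them, CACGCG read as CGCGTG on the printed strand, stands in capitals in the PIM2 window at -15 from the start.
PIM1 promoter, chr6:37169902-37170201, plus strand, GRCh38.p14: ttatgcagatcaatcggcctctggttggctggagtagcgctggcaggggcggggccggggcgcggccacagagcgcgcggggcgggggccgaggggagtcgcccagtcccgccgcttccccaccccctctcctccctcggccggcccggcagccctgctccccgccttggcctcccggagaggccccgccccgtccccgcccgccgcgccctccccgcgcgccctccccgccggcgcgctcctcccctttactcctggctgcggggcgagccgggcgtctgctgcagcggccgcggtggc
PIM2 promoter, chrX:48918975-48919274, minus strand, GRCh38.p14: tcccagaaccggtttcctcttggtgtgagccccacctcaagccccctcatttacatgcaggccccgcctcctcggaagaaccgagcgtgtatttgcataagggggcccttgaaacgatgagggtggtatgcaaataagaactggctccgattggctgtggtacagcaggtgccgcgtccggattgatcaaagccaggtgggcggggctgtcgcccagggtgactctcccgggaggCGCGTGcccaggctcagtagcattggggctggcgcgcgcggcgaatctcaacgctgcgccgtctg
PIM3 promoter, chr22:49960522-49960821, plus strand, GRCh38.p14: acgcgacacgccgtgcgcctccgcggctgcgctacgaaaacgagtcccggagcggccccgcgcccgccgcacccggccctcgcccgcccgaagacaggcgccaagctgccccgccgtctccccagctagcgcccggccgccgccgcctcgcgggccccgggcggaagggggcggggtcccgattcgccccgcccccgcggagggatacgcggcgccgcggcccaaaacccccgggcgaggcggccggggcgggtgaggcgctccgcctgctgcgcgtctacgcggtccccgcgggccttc
All are from RefSeq and run over the same 300 bases around the start. PIM1 and PIM3 are the richer in G and C, at 79.7% and 81.3%, against 62.3% in PIM2. None held the STAT site TTCNNNGAA, found in 7.66% of all windows, the cyclic AMP response element TGACGTCA (1.85%) or its core CGTCA (24.6%), or the AP-1 site TGANTCA (7.71%), on either strand. In windows of genes tested the shares were 6.14%, 3.13%, 32.9% and 4.86%, in that order. The absence of these letters from 300 bases says nothing of the factors, and sites farther away were not searched.

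AU-rich elements in the 3′ untranslated region are known to shorten the life of an mRNA, and the pentamer ATTTA is their core. In the GENCODE transcripts of GRCh38, PIM1 had 5 pentamers in 1335 bases, PIM2 had 2 in 949 and PIM3 had 4 in 953. PIM1 also held the longer nonamer TTATTTATT 3 times, where 9.14% of 9309 genes tested hold it at all. One site of each, on the strand of the transcript and with the pentamers in capitals, reads as follows.
PIM1 3′ site: caatgttatgtATTTATTTATTTATTTAtt
PIM2 3′ site: cctcctctcttctcctgcctggattATTTA
PIM3 3′ site: gcccaccggggctATTTAttgtttaATTTA
MYC had 4 pentamers in 476 bases, MXI1 had 3 in 1519, MAX 2 in 932, MYCN 2 in 910, ZBTB17 1 in 100 and MNT 0 in 2841. The density of ZBTB17 is reached by 1.13% of genes tested and that of MYC by 1.94%, against 15.5% for PIM3, 19.9% for PIM1 and 43.7% to 48.2% for MYCN, MAX, PIM2 and MXI1. By number the order differs, since the 3′ regions of ZBTB17 and MYC are short. At least as many pentamers were held by 74.2% of genes tested for ZBTB17, 39.7% for MYC and PIM3 and 33.6% for PIM1. The median over genes tested was 2 pentamers, and 25.8% had none. How these counts relate to the levels was not tested.

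**Figure D3:**
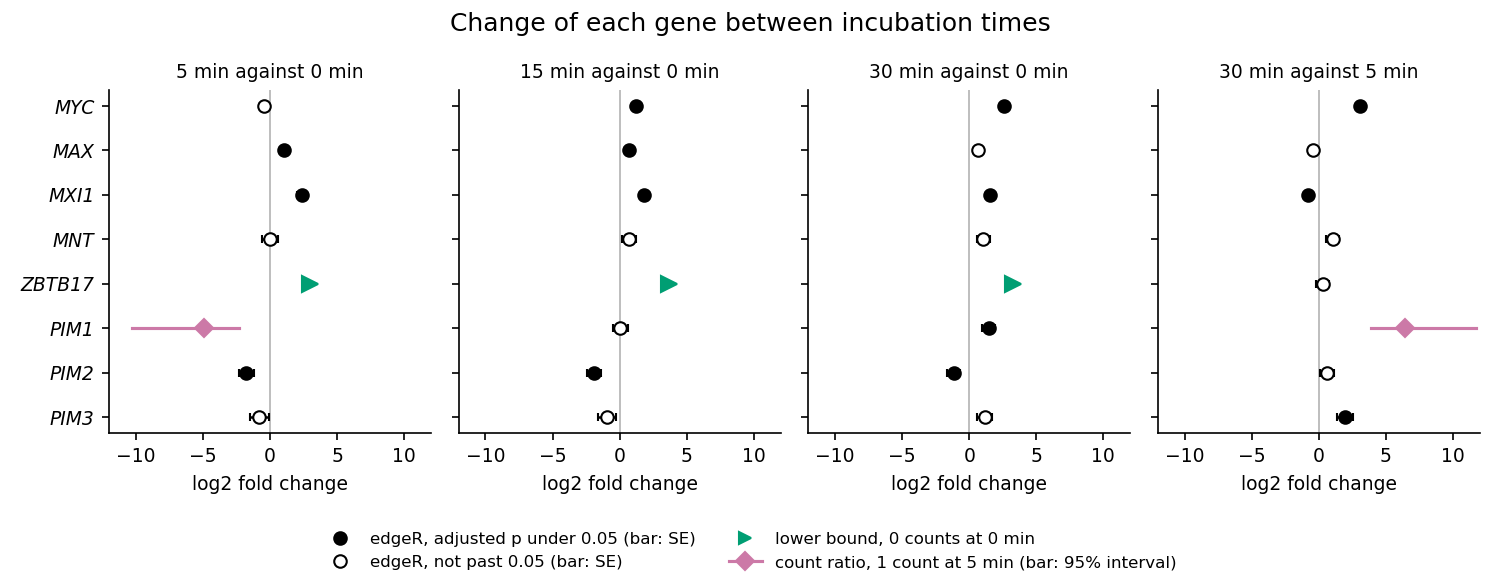
Log2 fold change of the 8 genes tested, from edgeR, in 4 comparisons of incubation times, with bars for the standard error and filled points for adjusted p under 0.05. Triangles are folds of ZBTB17 over a floor of 3 counts at 0 min, where it had 0 counts. They are marked as lower bounds but are not strict ones, since the later counts are taken without error. Diamonds are count ratios with 95% intervals for PIM1, which had 1 count at 5 min.

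The 8 genes also differed in the length of the gene itself, from its annotated start to its end in RefSeq. MAX spans 96.6 kb, MXI1 79.8 kb and ZBTB17 34.2 kb, and these were the genes higher at 5 min. PIM3 spans 3.3 kb, PIM1 5.28 kb, PIM2 5.84 kb, MYC 7.52 kb and MNT 17.0 kb, and none of them was. With 0 counts at 0 min, ZBTB17 could only be called higher. Across 9692 protein-coding genes tested, with a median span of 35.9 kb, Spearman's rho between span and change was 0.567 for 5 min against 0 min, 0.431 for 30 min against 0 min and -0.269 for 30 min against 5 min. Genes are not independent replicates, and the part of gene length in the changes of these 8 was not tested. The long neighbour of MXI1, ADD3, followed a similar course, at 36.8, 171.3, 117.9 and 98.9 CPM over the 4 times and -0.79 for 30 min against 5 min (edgeR adjusted p = 0.00861). METTL16, next to MNT, was higher at 5 min by 2.20 (edgeR adjusted p = 2.99e-10). SLC35A2, next to PIM2, was lower at 5 min by a log2 change of -1.79 (edgeR adjusted p = 0.0255). The other neighbours tested were not past the threshold at 5 min, with log2 changes of -1.43 for RAB15 and 0.27 for FUT8 beside MAX, -0.18 for SMNDC1 beside MXI1, -0.32 for SGSM2 beside MNT, 0.59 for OTUD5 beside PIM2 and 0.21 for CRELD2 beside PIM3.

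**Figure D4:**
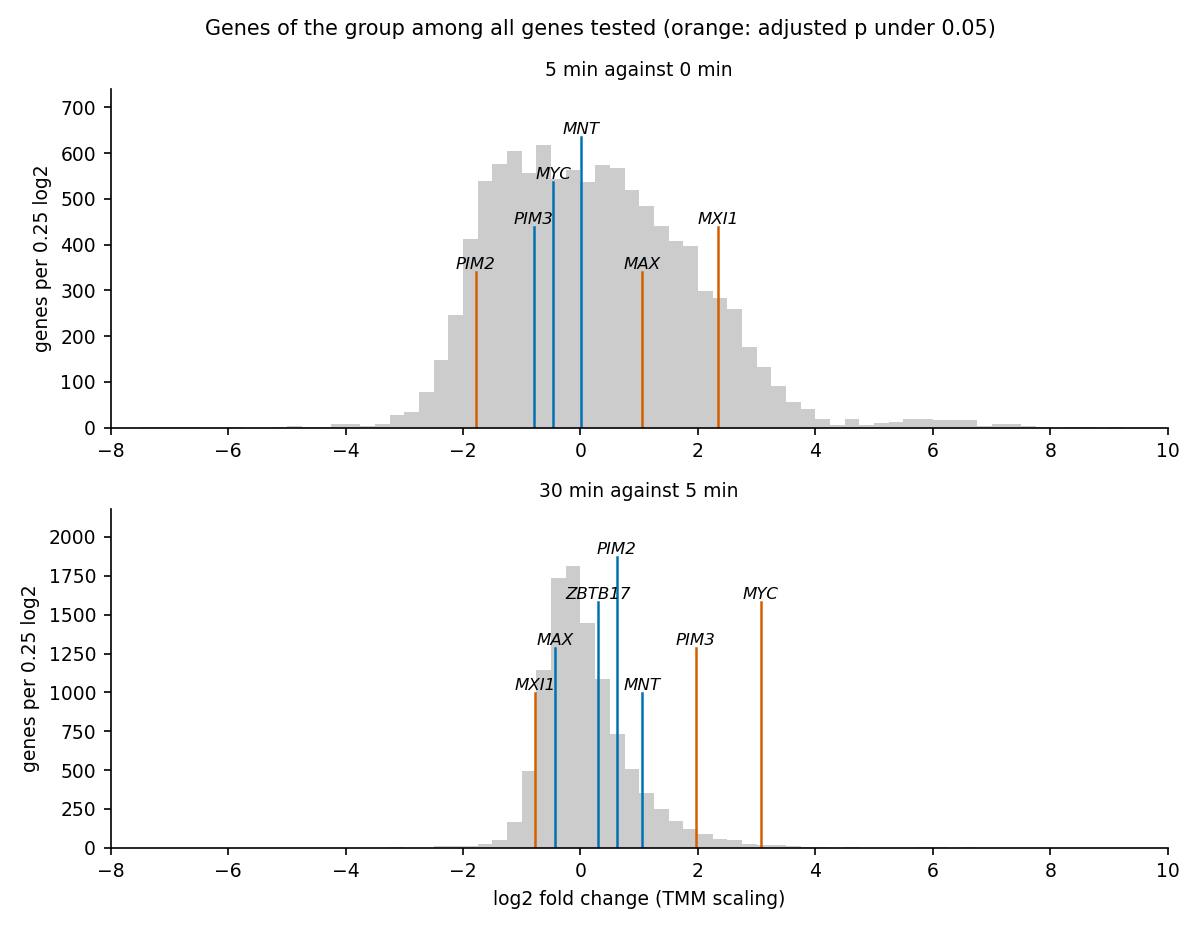
Histograms of the log2 fold change of all 10439 genes tested (bins of 0.25) for 5 min against 0 min above and 30 min against 5 min below, with lines for the genes of the group, orange where past the threshold; ZBTB17 above and PIM1 in both panels are left out because of counts of 0 or 1. In the lower panel MYC, at 3.07, and PIM3, at 1.96, stand in the upper tail, and MXI1, at -0.78, on the lower side.

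Genes whose levels ran most like each of these over the 8 cultures were found by Pearson's r of log2 CPM among 8651 genes with at least 10 CPM. The r values describe these 8 cultures, which share 4 times, and say nothing of shared function. Noise at low counts limits r, so the numbers of genes over 0.9 can depend on depth as well, which was not tested. HEY1 (0.989), a Notch target, and JUN (0.981), a subunit of AP-1, were most like MYC. JUN averaged 65.1, 43.7, 198.1 and 416.3 CPM at 0, 5, 15 and 30 min. SGK1 (0.979), a kinase induced by serum and glucocorticoid, and CXCR4 (0.974), a chemokine receptor, were most like PIM1. CXCR4 averaged 86.4, 18.0, 120.1 and 271.9 CPM, again lowest at 5 min. Genes over 0.9 numbered 76 for MYC, 46 for PIM1 and 18 for PIM3, whose nearest were ZNF57 (0.957) and SEPHS2 (0.949). MNT had 5, led by PURB (0.972) and FOXF2 (0.945). By contrast 1407 genes ran like MXI1, led by WTAP and INTU (0.995 each), 1355 like ZBTB17, led by ZNF100 (0.995) and ZFYVE9 (0.993), 460 like MAX, led by DHX36 (0.989) and SLC35D1 (0.984), and 322 like PIM2, led by C12orf29 (0.989) and PRC1 (0.988).

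The rest of the MAX network was mixed. Of 6 tested genes, 2 were higher and 1 lower at 30 min against 0 min, near the 32.1% of all genes called higher and 23.8% called lower, with a median log2 change of 0.73 beside 0.35 for all genes. MXD1, a MAX partner that represses like MXI1, was 3.28 higher (SE 0.71, edgeR adjusted p = 0.000167), at 27.7 ± 5.18 CPM against 3.09 ± 4.37 CPM at 0 min (SD, n = 2 each). MGA, a large MAX partner of a Polycomb complex, was 0.92 higher (SE 0.25, edgeR adjusted p = 0.00256). MLX, which pairs with the glucose-sensing factors MLXIP and MLXIPL, fell by 1.18 on the log2 scale (SE 0.23, edgeR adjusted p = 3.55e-05). With total counts 4 were higher and 0 lower.

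Of 19 tested genes for proteins listed as binding or working with MYC, 5 were higher and 5 lower at 30 min against 0 min, with a median of 0.46 beside 0.35. These counts are near the shares of all genes, 32.1% higher and 23.8% lower. MYCBP2, a ubiquitin ligase named for binding MYC, was 2.52 higher, CCNT1, the cyclin of the elongation factor P-TEFb, 2.11 higher and TRRAP, the scaffold of histone acetyltransferase complexes, 1.97 higher (edgeR adjusted p = 1.35e-12, 1.16e-10 and 1.98e-06). ACTL6A fell by 2.03, RUVBL1, an ATPase of remodelling complexes, by 1.84 and MYCBP by 1.56 on the log2 scale (edgeR adjusted p = 1.09e-08, 5.55e-11 and 0.000393). With total counts the split was 11 higher and 2 lower, and at 30 min against 5 min 0 of the 19 passed in edgeR in either direction.

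Among 20 tested genes that set the life of the MYC protein, 11 were higher and 3 lower at 30 min against 0 min, where 32.1% of all genes were higher and 23.8% lower, with a median of 0.88 beside 0.35. GSK3B, the kinase that marks MYC for degradation, was 3.02 higher, at 194.9 ± 15.7 CPM against 24.7 ± 11.0 CPM at 0 min (SD, n = 2 each, edgeR adjusted p = 1.12e-11). FBXW7, the ubiquitin ligase subunit that reads that mark, was 2.23 higher (SE 0.22, edgeR adjusted p = 1.08e-10) and FBXO28 2.03 higher (SE 0.28, edgeR adjusted p = 1.36e-07). SKP2, another ligase subunit for MYC, fell by 2.00 and AURKA, a mitotic kinase that stabilises MYCN, by 1.33 on the log2 scale (edgeR adjusted p = 1.3e-08 and 7.79e-05). With total counts the split was 14 higher and 1 lower. At 30 min against 5 min 1 of the 20 was higher and 1 lower.

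Of 28 tested textbook targets that MYC raises, 1 was higher and 16 lower at 5 min, 2 and 19 at 15 min and 4 and 17 at 30 min against 0 min. The shares of all genes were 28.7% higher and 26.0% lower at 5 min, 29.8% and 24.6% at 15 min and 32.1% and 23.8% at 30 min. Median log2 changes of the targets were -0.97, -1.23 and -0.89 at 5, 15 and 30 min, beside 0.10, 0.19 and 0.35 for all genes. NPM1, a nucleolar chaperone, fell to 1320 ± 76.8 CPM at 30 min, against 8325 ± 751.8 CPM at 0 min (SD, n = 2 each), a log2 change of -2.66 (SE 0.21, edgeR adjusted p = 1.54e-12). ENO1, a glycolytic enzyme, had a log2 change of -2.65 and HSPD1, a mitochondrial chaperonin, of -2.49 (edgeR adjusted p = 5.59e-13 and 7.88e-13). TERT, the telomerase subunit, was 1.82 higher, CAD, an enzyme of pyrimidine synthesis, 1.00 higher and RCC1, a nuclear exchange factor, 0.94 higher (edgeR adjusted p = 0.0164, 0.000283 and 3.28e-05). With total counts the split was 7 higher and 12 lower at 5 min, and at 30 min 9 higher and 12 lower with a median of -0.01, still 1.24 below that of all genes.

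Between 30 min and 5 min, 1 of the 28 targets was higher and 1 lower, where 5.88% of all genes were higher and 6.52% lower, with a median of 0.03 beside -0.03 for all genes. The higher one was RCC1, at 536.5 ± 5.43 CPM at 30 min against 221.7 ± 1.85 CPM at 5 min (SD, n = 2 each), a log2 change of 1.27 (edgeR adjusted p = 3.61e-06).

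Of genes listed as repressed by MYC, not all of them through ZBTB17, 4 were tested. By edgeR 1 was higher and 1 lower at 5 min and 2 were higher and 0 lower at 30 min against 0 min. Of all genes, 28.7% were higher and 26.0% lower at 5 min, and 32.1% and 23.8% at 30 min. The one lower at 5 min was CEBPA, a differentiation factor, at 2.12 CPM against 10.9 CPM at 0 min (edgeR adjusted p = 0.0203). CDKN1B, the cell cycle inhibitor p27, was at 4.13 ± 0.713, 11.2 ± 0.851, 20.1 ± 8.13 and 44.0 ± 7.44 CPM at 0, 5, 15 and 30 min (SD, n = 2 each), 3.40 higher at 30 min than at 0 min (SE 0.57, edgeR adjusted p = 4.54e-06) and 1.98 higher than at 5 min (edgeR adjusted p = 0.00229). CDKN2B, the inhibitor p15, was 2.21 higher at 30 min than at 0 min (SE 0.70, edgeR adjusted p = 0.00797). CDKN1A, the inhibitor p21, named after its values were seen, had a log2 change of 0.91 (edgeR adjusted p = 0.32).

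Upstream of PIM, 7 of 12 JAK-STAT genes were tested, 4 were higher and 1 lower at 5 min and 2 were higher and 0 lower at 30 min against 0 min by edgeR. The shares of all genes were 28.7% higher and 26.0% lower at 5 min and 32.1% and 23.8% at 30 min, which the count of 2 of 7 is near. With RLE size factors 1 was higher and 1 lower at 5 min. IL6ST, the shared receptor chain of the interleukin-6 family, was 1.36 higher at 30 min (SE 0.43, edgeR adjusted p = 0.00812). Of genes named after their values were seen, STAT5A, a known activator of PIM1, had 0 counts at every time, and STAT5B stood at -0.11 at 30 min (edgeR adjusted p = 0.877). The feedback genes CISH and SOCS3, chosen likewise, were too low to test, at 6.37 and 3.67 CPM at 30 min, against 0 counts at 0 min for both. SOCS1 and SOCS2 of the same list, also too low to test, did not follow this course. SOCS1 averaged 1.54, 0, 0.342 and 0.901 CPM at 0, 5, 15 and 30 min, and SOCS2 4.47, 2.59, 2.03 and 5.43 CPM.

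Of 14 tested genes for substrates of PIM kinases, 4 were higher and 4 lower at 5 min and 6 higher and 3 lower at 30 min against 0 min. At 5 min this is close to the 28.7% of all genes called higher and 26.0% called lower, and at 30 min the shares of all genes were 32.1% and 23.8%. FOXO3, a forkhead factor, was 2.13 higher at 30 min (SE 0.38, edgeR adjusted p = 1.31e-05) and MAP3K5, a stress kinase, 2.08 higher (SE 0.31, edgeR adjusted p = 6.32e-07), beside CDKN1B, which is also a PIM substrate. BAD, a pro-death BCL2 protein, fell by 2.00, CBX3, a heterochromatin protein, by 1.96 and EIF4EBP1, an inhibitor of translation initiation, by 1.14 on the log2 scale (edgeR adjusted p = 0.0116, 4.82e-11 and 0.0182). The split at 30 min was 6 higher and 5 lower with RLE size factors and 9 higher and 1 lower with total counts.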

How the data were processed

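RNA of HEK293 cells was counted at 0, 5, 15 and 30 min of 4-thiouracil in 32 libraries. The deposited data are whole-number counts per gene in 1 table made by the authors. STAR was the aligner and hg19 the build, per the submitters' processing notes. Cells were grown after a published protocol for transient transcriptome sequencing and libraries made after one for tagged reverse transcription of single cells, per the labels' protocols. Not given in the sources used here are the STAR version, the annotation, the strand setting and the handling of molecular identifiers. A barcode in header and label tied each column to its sample, although 4 libraries carry another tagmentation number in the header than in the label, which changes no sum.

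The counts of a culture are the sums of its 4 libraries. Libraries of the same cDNA (16 pairs) differed by less than the sampling noise, with chi-square values of 0.327 to 0.594 per degree of freedom, and were never used as separate samples. The 32 pairs from different cDNA of 1 culture gave 1.14 to 2.29. The two-sided quasi-likelihood F test of edgeR 4.0.16 (R 4.3.3) was run with TMM scaling on the 10439 genes that filterByExpr kept, in 1 fit over 8 cultures with 4 residual degrees of freedom. P-values were adjusted by Benjamini-Hochberg over all genes, with a threshold of 0.05. The common dispersion of 0.0235 corresponds to 15.3% variation between cultures. Log2 fold changes are of the time named first over the time named second, with SE taken as the fold change over the root of F. P-values rest on the spread between the 2 cultures of a time, pooled over the 4 times and moderated by that of the other genes in the fit. The labels call these cultures biological replicates without saying how separate they were. Log2 ratios had 0.5 added to each count. Genes at 0 were set to a floor of 3 counts over both cultures. Alternatives were RLE size factors, total counts, 2 other filters, DESeq2 1.42.0, a replicate block, the cultures of the compared times alone, 1 library per cDNA and each culture left out. The code was tested on simulated counts.

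The members and lists were chosen with earlier results of these data known. The rule for other genes named from each list was the 3 largest increases and 3 largest decreases from 0 to 30 min past the threshold with at least 10 CPM, plus the 2 genes most alike and the neighbours of each member. Some genes that this rule names are not reported here. Promoter windows are from RefSeq (GRCh38.p14) and 3′ regions from GENCODE, a later build than that of the counts, and were matched by symbol for 7 and 9 of the 9 genes.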

Additional observations from a re-analysis of the deposited data

How the results depend on the processing

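Of 754 changes of single genes recomputed under the alternatives, 673 kept both direction and side of the threshold, 40 lost a call, 22 gained one and 19 changed sign. The MYC calls after 5 min, the calls of MXI1 and ZBTB17 against 0 min and those of PIM1 against 5 min kept their side in every alternative that gave an adjusted p. All sign changes fell on changes that had not passed. For MNT at 5 min against 0 min the log2 fold change of 0.01 became -0.055 with RLE size factors, -0.023 with at least 10 CPM, -0.008 in DESeq2 and -0.82 with 1 library per cDNA, and ranged from -0.90 to 0.74 with 1 culture left out. MYC at 5 min against 0 min became 0.27 with total counts. PIM1 at 15 min against 0 min became -0.046 with RLE and -0.057 in DESeq2, and ranged from -0.38 to 0.44 with 1 culture left out. With 1 library per cDNA PIM2 became 0.29 and PIM3 0.021 at 15 min against 5 min. MAX became 0.02 with total counts at 30 min against 15 min. With 1 culture left out, PIM3 at 15 min against 5 min ranged from -0.374 to 0.085, and at 30 min against 15 min MAX ranged from -0.21 to 0.081, MXI1 from -0.473 to 0.042 and ZBTB17 from -0.76 to 0.10. The cause was not tested.

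In DESeq2 the number of the 9 genes called was 1 at 15 min against 5 min, where PIM1 had no adjusted p. It was 1 at 30 min against 15 min, where PIM3 had no adjusted p, and 2 at 30 min against 5 min. With 1 culture left out, which leaves a lone culture assumed to vary like the rest, it ranged from 3 to 7 at 30 min against 0 min, from 1 to 3 at 30 min against 15 min and from 2 to 4 at 30 min against 5 min. Over all genes, calls at 15 min against 5 min numbered 162, against 104 in DESeq2, 258 with the 4 cultures of these times alone and 69 to 273 with 1 culture left out, lowest without culture 1 of 5 min or culture 2 of 15 min. Those at 30 min against 15 min numbered 526, against 903 with the 4 cultures alone and 143 to 659 with 1 left out, lowest without culture 1 of 30 min. Those at 30 min against 5 min numbered 1295, against 498 to 1627 with 1 left out, lowest without culture 1 of 30 min. With total counts 4461 were higher and 1448 lower at 5 min against 0 min (TMM 2998 and 2712), 4901 and 1307 at 15 min against 0 min (TMM 3110 and 2573), and 138 and 36 at 15 min against 5 min (TMM 108 and 54). At 30 min against 15 min 315 were higher and 202 lower with total counts and 198 and 391 with RLE (TMM 236 and 290). At 30 min against 5 min 767 and 311 were called with total counts and 551 and 1122 with RLE (TMM 614 and 681). The log2 ratio of MYC to ZBTB17, set at 0 min by the added count alone, was -2.23 at 30 min against 0 min, -1.19 with 1 library per cDNA and -1.26 with 1 added, so no change is read from it.

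The replicate numbers did not pair the cultures, since the differences between cultures 1 and 2 correlated across times at -0.038 to 0.087 over 8659 genes. With a replicate block 5 genes were called at 30 min against 0 min, 5 higher and 0 lower, since MAX passed (adjusted p = 0.0437) and PIM2 did not (adjusted p = 0.0605), and MXI1 was no longer called at 30 min against 5 min (adjusted p = 0.0535). Depth limits the PIM genes, ZBTB17, MNT and MYCN most, at 128 to 210 counts over all cultures for PIM1, PIM2, PIM3, ZBTB17 and MNT and 3 for MYCN.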

Other observations

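A few genes of the wider pathways differed between 30 min and 5 min, and are named here after their values were seen. CXCR4, a chemokine receptor whose tail PIM1 phosphorylates, was at 271.9 ± 37.1 CPM at 30 min against 18.0 ± 5.47 CPM at 5 min (SD, n = 2 each), a log2 change of 3.85 (SE 0.27, edgeR adjusted p = 1.03e-12). MARK3, a polarity kinase and PIM substrate, was lower, at 131.7 ± 18.1 CPM against 207.3 ± 29.5 CPM, a log2 change of -0.66 (SE 0.19, edgeR adjusted p = 0.0191). Among genes of MYC turnover, HUWE1, a giant ubiquitin ligase, was lower by a log2 change of -0.76 (SE 0.17, edgeR adjusted p = 0.0031) and USP36, a nucleolar deubiquitinase that stabilises MYC, was higher by 0.75 (SE 0.25, edgeR adjusted p = 0.0477). MLXIP, a glucose-sensing partner of MLX, was 1.18 higher (SE 0.39, edgeR adjusted p = 0.0391), and FBL, a nucleolar methyltransferase, was lower by a log2 change of -0.74 (SE 0.24, edgeR adjusted p = 0.0355). The SD of FBL was 1.45 CPM at 30 min and 73.3 CPM at 5 min (n = 2 each), so its cultures of 5 min stood far apart. CEBPA stood at 19.4 ± 9.13 CPM at 30 min against 2.12 ± 2.00 CPM at 5 min (SD, n = 2 each, edgeR adjusted p = 0.00688). These comparisons were not run under the alternatives for single genes.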
